A study of Mus musculus with 16 samples.

Results

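Genes of cell-cycle arrest and the p53 pathway, 9 in all, were followed in lungs of mice exposed to second-hand smoke (SHS) before birth, in adult life, or both: the cyclin-dependent kinase (CDK) inhibitors Cdkn1a, Cdkn1b and Cdkn2c, the p53 targets Mdm2, Ccng1 and Trp53inp1, and the stress genes Gadd45a, Gadd45b and Gadd45g. Members were all probe sets whose platform annotation gives 1 of these symbols, which made 18 of 45037 probe sets and 9 of 18193 named genes. Each sample was the left lung of a male Balb/c mouse of 15 weeks, read on an Affymetrix mouse expression array. The SS group had SHS in utero and again as adults, the AS group filtered air in utero and SHS as adults, the SA group SHS in utero and filtered air as adults, and the AA group filtered air at both times. Smoke was sidestream smoke at a particle load of 10 mg/m3, given daily (5 hours a day, 7 days a week), and no group carried a transgene or a drug. Whole lung was used, so that fewer cells of a type and less RNA per cell cannot be told apart in any value below.

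CDK inhibitors bind the kinases that drive the cell from G1 into DNA synthesis: Cdkn1a (p21) and Cdkn1b (p27) act on cyclin-CDK complexes at large, and Cdkn2c (p18) binds Cdk4 and Cdk6. The transcription factor p53, stabilised by DNA damage and other stress, induces Cdkn1a and also Mdm2, the ligase that degrades p53 in turn. Its further targets include Ccng1 (cyclin G1), Trp53inp1, which promotes p53 activity and autophagy, and Gadd45a, whose family binds Pcna and the kinase Map3k4. Cdkn1a is also induced without p53, glucocorticoids being a known inducer in cultured lung epithelial cells.

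Promoter sequence is shown for the members in which a p53 half-site was found, because the genes are grouped by their relation to p53 and did not move as a group. RefSeq promoter windows on GRCm38.p6, from 250 bases before to 50 bases after a start, matched 8 of the 9 members in 10 windows, and Trp53inp1 had none. The p53 half-site, a motif that is its own reverse complement, occurred in 4 of the 10 member windows, against 8.36% of all 32851 windows. Capitals mark the half-sites. Cdkn1a had 2 of them, starting 73 and 51 bases before the start at the more upstream of its 2 annotated starts, and its whole window is given. For Mdm2, Ccng1 and Gadd45a the 60 bases around the half-site are given, which starts 186, 185 and 40 bases before the start.
Cdkn1a, chr17:29090729-29091028, plus strand: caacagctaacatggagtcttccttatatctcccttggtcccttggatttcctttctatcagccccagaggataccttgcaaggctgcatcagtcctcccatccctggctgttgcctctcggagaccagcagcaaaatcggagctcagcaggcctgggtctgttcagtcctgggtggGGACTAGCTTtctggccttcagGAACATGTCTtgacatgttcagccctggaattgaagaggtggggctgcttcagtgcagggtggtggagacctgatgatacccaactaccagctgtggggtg
Mdm2, chr10:117710910-117710969, minus strand: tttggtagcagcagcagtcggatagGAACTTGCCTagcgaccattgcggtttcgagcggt
Ccng1, chr11:40755437-40755496, minus strand: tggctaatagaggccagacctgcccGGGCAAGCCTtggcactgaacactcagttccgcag
Gadd45a, chr6:67037413-67037472, minus strand: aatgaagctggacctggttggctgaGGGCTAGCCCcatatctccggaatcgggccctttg
The glucocorticoid response element, searched on both strands as GNACA, any 3 bases and TGTNC, was in 0 of the 10 member windows and in 0.47% of all windows. These are letter matches within the windows and no measure of binding. Of the 4 genes with a half-site in the window, Cdkn1a differed between groups past the threshold used here and Mdm2, Ccng1 and Gadd45a did not.

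There were 4 arrays per group, with medians between 6.9 and 6.93 on the log2 scale. AS replicates 3 and 4, and SS replicates 1 and 2, were so alike that each pair was averaged and counted once: their difference over variable probe sets, relative to that over stable ones, had a ratio of 1.35 and 1.24, against 2.84 to 5.96 in the other 22 pairs within groups. The labels call all 16 separate animals. This left 3 SS, 3 AS, 4 SA and 4 AA samples, and such a number limits the precision of every value. Markers of lung cells were bright in all of them, for example Scgb1a1 of club cells at 14.91 to 14.98 and Ager of alveolar type 1 cells at 14.29 to 14.64. Erythroid and proliferation genes stood apart in SA replicate 4, with sample means 1.88 and 0.96 above the AA mean. AS replicates 3 and 4 stood apart from AS replicates 1 and 2 at the stable probe sets. Their root mean square differences there were 0.207 to 0.257, against 0.058 to 0.132 in all other pairs within groups.

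The adult exposure of mice that had already met SHS in utero (SS minus SA) moved 3 of the 9 genes. Cdkn1a and Trp53inp1 rose at both of their probe sets, and Cdkn2c fell at its only one. These were 5 of 18 member probe sets, where 1.64% of all probe sets passed (limma, adjusted p under 0.05). The 4 higher ones stand beside 0.773% of all probe sets called higher, and the 1 lower beside 0.864% called lower. In mice that had air in utero (AS minus AA), 0 of 18 passed, where 1.55% of all did, and 6 of the 18 had an unadjusted p under 0.05, as had 20.3% of all. The mean of both adult effects called the 5 probe sets of SS minus SA again, in the same directions, where 5.95% of all passed. This mean contains SS minus SA and its samples, so it is no separate evidence. For Cdkn2c its value of -0.20 joined -0.45 in SS minus SA and 0.04 in AS minus AA. With 1 probe set per gene, the brightest, the median over the 9 genes was 0.08 in SS minus SA and 0.04 in AS minus AA, beside -0.01 and 0.02 over all genes.

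**Figure D1:**
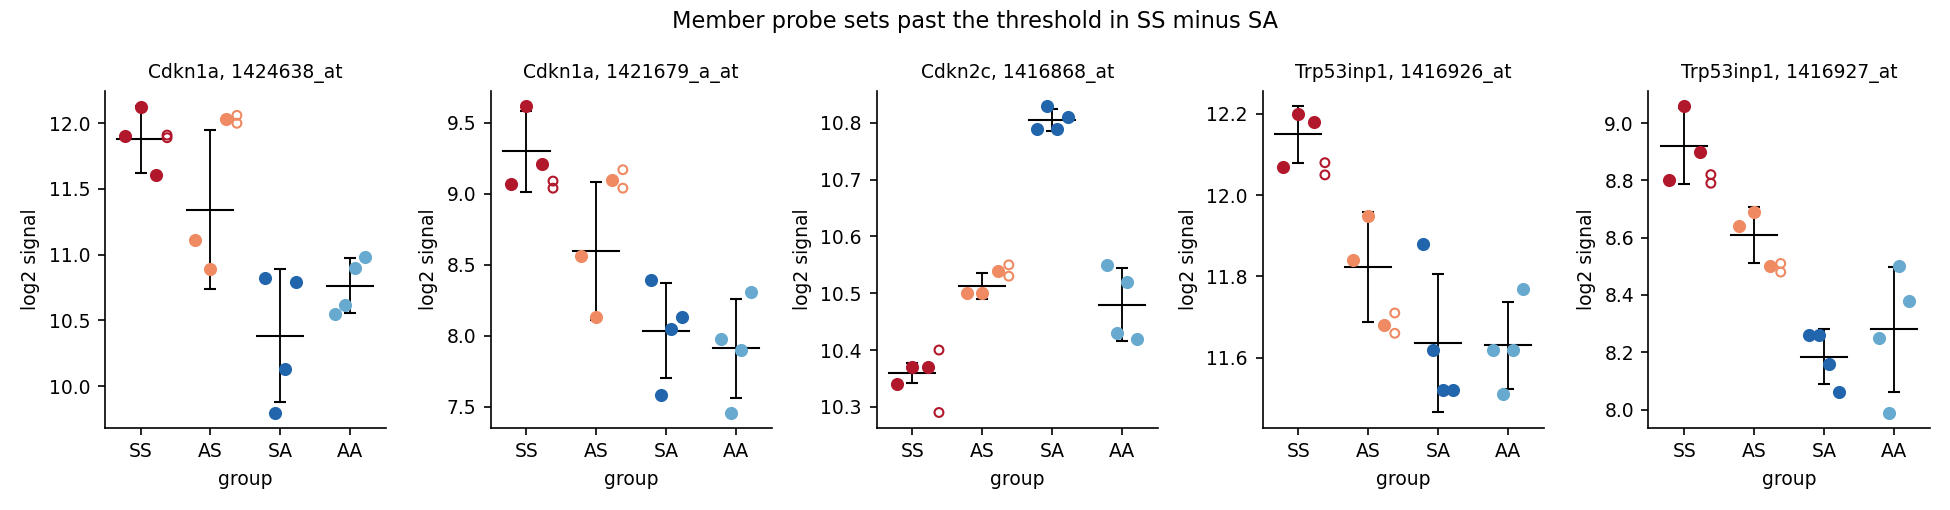
Log2 signal (vertical axis) of the 5 member probe sets past the threshold in SS minus SA, by group. Filled points are samples, bars are means with SD, and hollow points are the single arrays of an averaged pair. Both Cdkn1a and both Trp53inp1 probe sets have their highest group mean in SS (11.88 for the brighter Cdkn1a probe set), and Cdkn2c has its 4 SA samples, at 10.79 to 10.83, above every other sample.

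Among the CDK inhibitors, Cdkn1a had the largest change of any member. At its brighter probe set, 1424638_at, the 3 SS samples had log2 values of 11.90, 12.12 and 11.61, against 10.82, 9.80, 10.13 and 10.79 in the 4 SA samples. The lowest SS sample lay above the highest SA sample. The difference was 1.49 ± 0.27 (SE; 95% interval 0.92 to 2.07), or 2.81-fold, with an adjusted p of 0.0109 in limma. In lungs exposed as adults only, the AS samples had 11.11, 10.89 and 12.03, against 10.55, 10.62, 10.90 and 10.98 in AA samples. The highest AS value was that of the averaged pair, the other AS samples lay within or just above the AA range, and the groups overlapped. The AS minus AA difference was 0.58 ± 0.27 (95% interval 0.01 to 1.15; adjusted p = 0.24), and 0.24 without that pair.

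The dimmer Cdkn1a probe set, 1421679_a_at, also had its highest mean in SS and its second in AS, with SA and AA in the other order than at the brighter one. Its log2 values were 9.07, 9.62 and 9.21 in SS, against 8.39, 7.58, 8.05 and 8.13 in SA, with no overlap. They were 8.56, 8.13 and 9.10 in AS, against 7.98, 7.46, 7.90 and 8.31 in AA, and here the groups overlapped. The SS minus SA difference was 1.26 ± 0.24 or 2.4-fold (adjusted p = 0.0135), and AS minus AA was 0.68 ± 0.24 (adjusted p = 0.137), or 0.43 without the averaged AS pair. The 2 adult effects did not differ past the threshold at either probe set: the interaction, (SS minus SA) minus (AS minus AA), was 0.91 ± 0.38 (95% interval 0.10 to 1.72; adjusted p = 0.475) and 0.58 ± 0.33 (-0.13 to 1.29; adjusted p = 0.65). Averaged over both in-utero groups, adult SHS raised Cdkn1a by 1.04 ± 0.19 and 0.97 ± 0.17 at its 2 probe sets (adjusted p = 0.00815 and 0.00598). One sample weighed on the SS minus SA result: without SS replicate 3 the differences were 1.37 and 1.10 with adjusted p of 0.0818 and 0.107, and without the averaged SS pair the brighter probe set did not pass either.

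Cdkn2c, the inhibitor of Cdk4 and Cdk6, moved the other way and by less, with samples of a group close together. Its probe set 1416868_at had log2 values of 10.34, 10.37 and 10.37 in SS, against 10.79, 10.83, 10.79 and 10.81 in SA. No sample of either group came near the other. The fall was -0.45 ± 0.06 (95% interval -0.56 to -0.33), which makes the SS level 0.735 of the SA level (adjusted p = 0.00141), and it passed under all 23 alternative settings, with -0.45 to -0.43. In AS it had 10.50, 10.50 and 10.54, against 10.55, 10.43, 10.52 and 10.42 in AA. Those groups overlapped, and the difference was 0.04 ± 0.06 (95% interval -0.08 to 0.15; adjusted p = 0.747).

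The SA group is the one that stood apart for Cdkn2c. Its mean was 10.81 ± 0.02 (SD, n = 4), against 10.48 ± 0.06 in AA (SD, n = 4), and all 4 SA samples lay above all 10 of the others. SA minus AA, which shares the SA samples with SS minus SA, was 0.33 ± 0.05 (95% interval 0.22 to 0.44), with an unadjusted p of 1.43e-05 and an adjusted p of 0.322. The adjusted p of this in-utero difference ranged from 0.115 to 0.906 over the alternatives. Cdkn2c was the single member for which the 2 adult effects differed past the threshold, with an interaction of -0.48 ± 0.08 (adjusted p = 0.0278), where 0.131% of all probe sets passed and 0.0488% of all passed with a value below 0. That call held in 12 of 22 alternatives. SA replicate 4, with its high erythroid and proliferation genes, had 10.81 and sat inside its group, and SS minus SA was -0.44 without it.

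Cdkn1b, which restrains cyclin E and Cdk2, passed in no comparison. Its brighter probe set, 1434045_at, had 10.90, 10.97 and 11.12 in SS, against 11.38, 11.21, 11.25 and 11.10 in SA, so that the groups met at their edges. The difference was -0.24 (95% interval -0.44 to -0.04; adjusted p = 0.245). AS samples had 11.01, 11.17 and 10.98, against 11.22, 11.30, 10.94 and 11.17 in AA (-0.11, adjusted p = 0.534). The dim probe set 1419497_at had group means of 5.22 in SS and 5.34 in SA, and of 5.15 in AS and 5.41 in AA. At both probe sets both adult differences were below 0 and none passed.

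**Figure D2:**
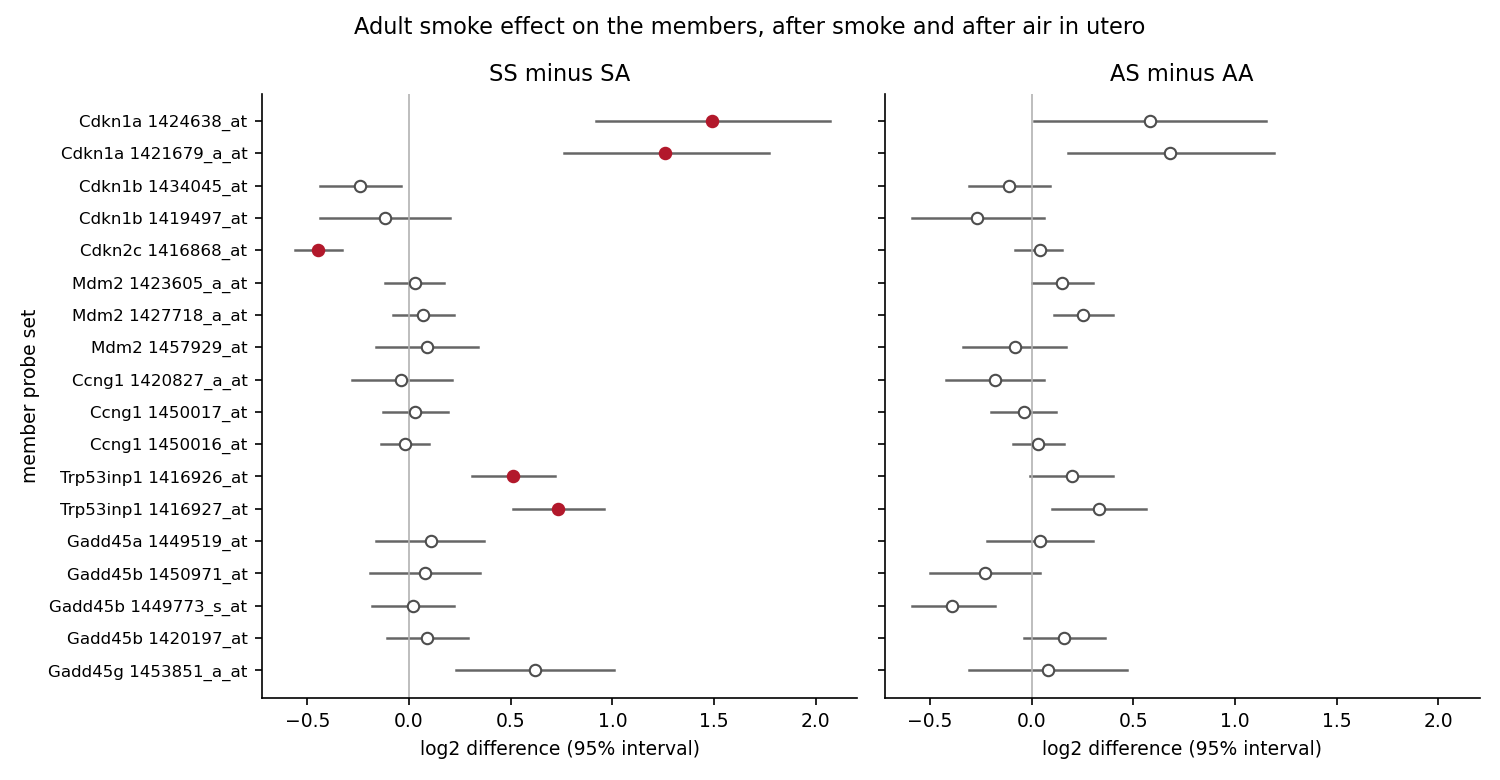
Log2 difference with its 95% interval (horizontal axis) for each of the 18 member probe sets, SS minus SA at left and AS minus AA at right. Filled red points passed the threshold: 5 at left, led by Cdkn1a at 1.49, and 0 at right.

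Of the p53 targets, Trp53inp1, whose product promotes p53 activity and autophagy, followed Cdkn1a in direction. Its brighter probe set, 1416926_at, had log2 values of 12.07, 12.20 and 12.18 in SS, against 11.88, 11.62, 11.52 and 11.52 in SA. All SS samples lay above all SA samples. The rise was 0.51 ± 0.10 or 1.43-fold (adjusted p = 0.0134). AS samples had 11.84, 11.95 and 11.68, against 11.62, 11.51, 11.62 and 11.77 in AA, with overlap and a difference of 0.20 ± 0.10 (adjusted p = 0.263). The call in SS minus SA was lost without SS replicate 3 (0.49, adjusted p = 0.0931) and without SS replicate 4.

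At the dimmer Trp53inp1 probe set, 1416927_at, SS samples had 8.80, 9.06 and 8.90, against 8.26, 8.26, 8.16 and 8.06 in SA. The gap between these groups was wider than the spread within either. The rise was 0.73 ± 0.11 or 1.66-fold (adjusted p = 0.00342) and passed under all 22 alternatives. AS samples had 8.64, 8.69 and 8.50, against 8.25, 7.99, 8.50 and 8.38 in AA, where the lowest AS and the highest AA sample were level, and the difference was 0.33 ± 0.11 (adjusted p = 0.116). Over both in-utero groups, adult SHS raised the 2 probe sets by 0.35 and 0.53 (adjusted p = 0.0104 and 0.00223), and their interactions were 0.32 (95% interval 0.03 to 0.61; adjusted p = 0.493) and 0.40 (0.08 to 0.73; adjusted p = 0.4).

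Mdm2, the ligase of p53, passed nowhere. Its brightest probe set, 1423605_a_at, had 10.27, 10.43 and 10.34 in SS, against 10.27, 10.36, 10.35 and 10.31 in SA, a difference of 0.03 (95% interval -0.12 to 0.17; adjusted p = 0.915). The interval leaves out a rise of the size seen at Cdkn1a. The second probe set, 1427718_a_at, had its highest mean in AS, as the brightest had. Its values were 9.62, 9.59 and 9.58 there, against 9.32, 9.31, 9.48 and 9.26 in AA, without overlap. This difference was 0.25 ± 0.07 (95% interval 0.11 to 0.40; adjusted p = 0.0749), beside 0.07 (adjusted p = 0.713) in SS minus SA. Its mean over both adult effects, 0.16, had an adjusted p of 0.064 and passed in 5 of 21 alternatives. The third probe set, 1457929_at, was dim, with group means of 4.57 in SS, 4.44 in AS, 4.48 in SA and 4.52 in AA.

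Ccng1, among the brightest members, differed little between SS and SA at each of its 3 probe sets. The brightest, 1420827_a_at, had 11.37, 11.29 and 11.36 in SS, against 11.47, 11.40, 11.27 and 11.37 in SA. The differences of the 3 probe sets were -0.04, 0.03 and -0.02, with 95% intervals within -0.28 to 0.21. In AS the same probe set had 11.16, 11.44 and 10.80, against 11.37, 11.22, 11.25 and 11.42 in AA. The averaged AS pair was the lowest of all samples, another AS sample was above the AA range, and the difference was -0.18 ± 0.11 (adjusted p = 0.385).

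**Figure D3:**
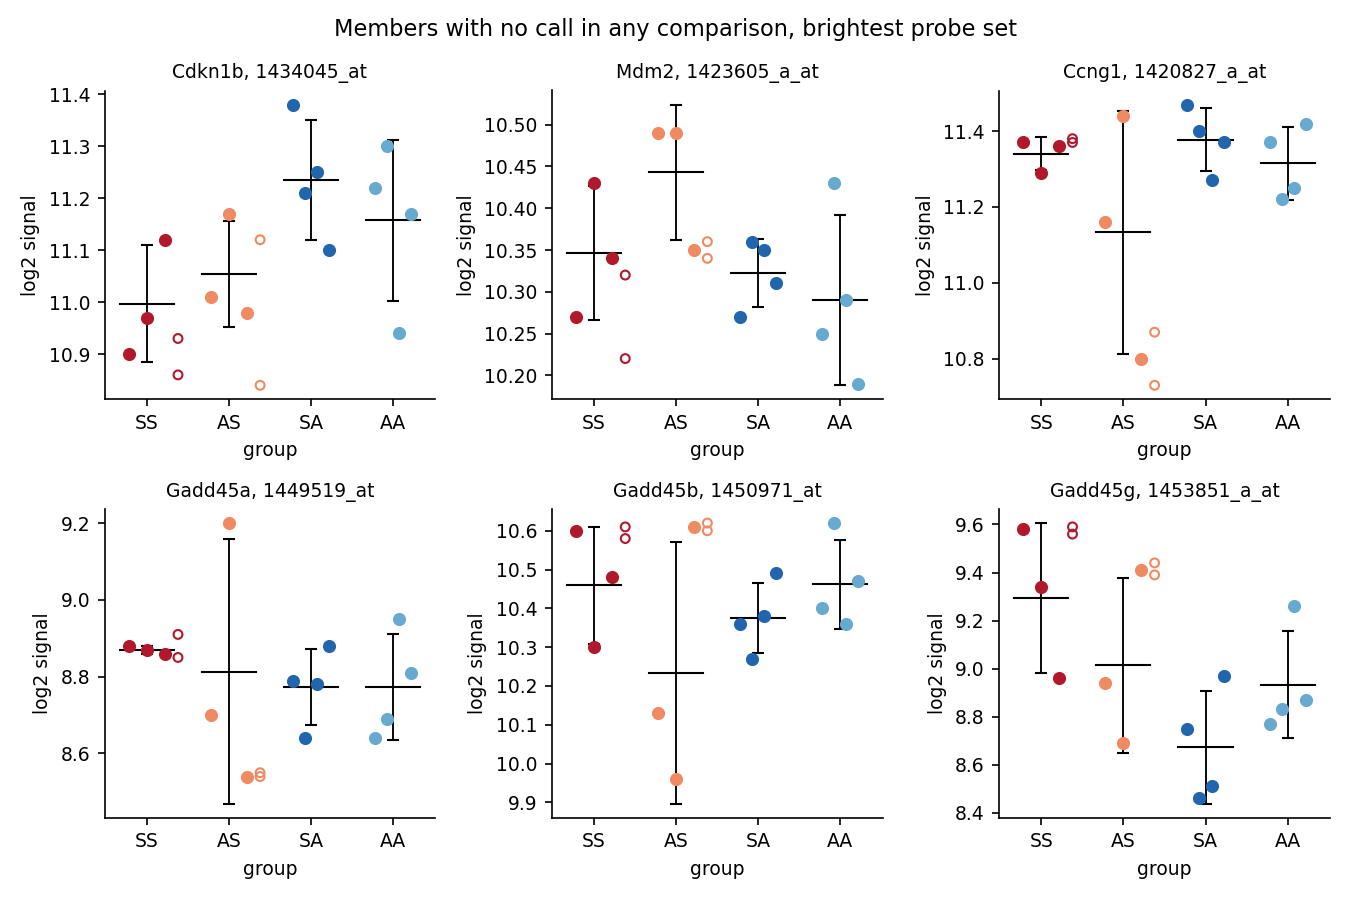
Log2 signal (vertical axis) by group at the brightest probe set of the 6 members that passed in no comparison. Filled points are samples, bars are means with SD, and hollow points are the single arrays of an averaged pair. The groups overlap in most panels, and AS samples are the most spread for Ccng1 (10.80 to 11.44), Gadd45a (8.54 to 9.20) and Gadd45b (9.96 to 10.61).

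The GADD45 family, small proteins that bind Pcna and Map3k4 and are induced by stress, had 5 probe sets and 0 calls in any comparison. Of all probe sets, 0.0% (SA minus AA) to 5.95% (mean adult effect) passed, so 0 of 5 is near the share of all. Gadd45g came nearest in SS minus SA: it had 9.58, 9.34 and 8.96 in SS, against 8.75, 8.46, 8.51 and 8.97 in SA, where 1 SS sample fell inside the SA range. The difference was 0.62 ± 0.18 (95% interval 0.23 to 1.01; adjusted p = 0.115), and it passed in 2 of 23 alternatives. AS samples had 8.94, 8.69 and 9.41, against 8.77, 8.83, 9.26 and 8.87 in AA, with overlap and a difference of 0.08 (adjusted p = 0.829).

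Gadd45b gave different pictures at its probe sets. At 1449773_s_at, AS samples had 10.07, 9.92 and 10.13, against 10.53, 10.39, 10.36 and 10.44 in AA, and the groups were apart. The difference was -0.39 ± 0.09 (95% interval -0.59 to -0.18; adjusted p = 0.0542), which passed in 5 of 22 alternatives, while SS minus SA was 0.02 (adjusted p = 0.955). At the slightly brighter 1450971_at, AS samples had 10.13, 9.96 and 10.61, against 10.40, 10.62, 10.36 and 10.47 in AA. The averaged AS pair reached the top of the AA range here, and the difference was -0.23 (adjusted p = 0.313). The dim 1420197_at had 6.18, 6.34 and 6.68 in AS, against 6.20, 6.24, 6.21 and 6.32 in AA, which points the other way (0.16, adjusted p = 0.353).

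Gadd45a, the p53-induced member of the family, had 8.88, 8.87 and 8.86 in SS, against 8.79, 8.64, 8.78 and 8.88 in SA (0.11, 95% interval -0.16 to 0.37; adjusted p = 0.76). In AS it had 8.70, 9.20 and 8.54, against 8.64, 8.69, 8.95 and 8.81 in AA. The AS samples spread to both sides of the AA range, with a difference of 0.04 (adjusted p = 0.88).

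Exposure in utero was read at each adult exposure. In mice kept in air as adults (SA minus AA), 0 of 18 member probe sets passed, as did 0.0% of all probe sets (limma; 1 of the 18, Cdkn2c, had an unadjusted p under 0.05, against 6.23% of all). Cdkn1a had -0.38 (95% interval -0.91 to 0.15) at its brighter and 0.12 at its dimmer probe set, and Trp53inp1 had 0.01 and -0.09. In mice with SHS as adults (SS minus AS), 0 of 18 passed, where 0.968% of all did, and 6 had an unadjusted p under 0.05, as had 13.6% of all. The dimmer Cdkn1a probe set had 0.70 (adjusted p = 0.233), Trp53inp1 had 0.32 and 0.31 (adjusted p = 0.167 and 0.244), Gadd45b had 0.35 at 1449773_s_at (adjusted p = 0.134) but -0.22 at the dim 1420197_at (adjusted p = 0.353), and Cdkn2c had -0.15 (adjusted p = 0.273).

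Lungs with both exposures were also set against lungs with neither (SS minus AA), a comparison that shares the SS samples with the one above. Here 3 of 18 member probe sets passed, all higher, where 0.4% of all passed and 0.184% of all were called higher. Trp53inp1 rose by 0.52 and 0.64 (adjusted p = 0.0314 and 0.0193) and Cdkn1a by 1.38 ± 0.24 at its dimmer probe set (adjusted p = 0.021). The brighter Cdkn1a probe set had 1.11 ± 0.27 (adjusted p = 0.102), although its SS and AA samples did not overlap. Cdkn2c had -0.12 (adjusted p = 0.494). None of the 3 calls held without SS replicate 3, SS replicate 4 or AA replicate 1.

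Genes around the members were described by lists, each gene at its brightest probe set. Of 4 other CDK inhibitors, 0 passed in any comparison, where 1.91% of all genes passed in SS minus SA and 1.12% in AS minus AA. Among them Cdkn2b (p15), the INK4 neighbour in function of Cdkn2c, had -0.17 in SS minus SA and -0.10 in AS minus AA. Of 11 G1 cyclins, CDKs and pocket proteins, 0 passed in either adult comparison, and Cdk4 and Cdk6, the kinases that Cdkn2c binds, had 0.03 and 0.13 in SS minus SA. The mean over both adult effects called 1 of the 11, the pocket protein Rbl1, at -0.25 ± 0.05 (adjusted p = 0.0152), where 6.27% of all genes passed. Of 9 p53 relatives and regulators measured, 0 passed in any comparison, with medians of -0.08 in SS minus SA and -0.05 in AS minus AA. Trp53, the gene of p53 itself, is not among these 9, as no probe set carried that symbol alone.

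Of 25 other p53 targets measured, 2 rose in SS minus SA, where 0.874% of all genes did. Bax and Gdf15, also on this list, had no probe set with their symbol alone and were not read. Ddit4, an inhibitor of mTORC1 that also answers to glucocorticoids and hypoxia, rose by 1.30 ± 0.23 (adjusted p = 0.0101), and Sesn2, a leucine sensor of the same pathway, by 0.46 ± 0.11 (adjusted p = 0.0444). In AS minus AA 1 of the 25 rose, where 0.594% of all genes did: the kinase Plk2, by 1.02 ± 0.17 (adjusted p = 0.0124), with Btg2, an antiproliferative early-response gene, at 1.01 (adjusted p = 0.0616). Plk2 had -0.39 in SS minus SA, and its interaction of -1.42 ± 0.24 passed (adjusted p = 0.0399). The medians of the 25 were 0.01 in SS minus SA and 0.07 in AS minus AA. Of those that did not pass in SS minus SA, the death receptor Fas had the largest difference, 0.56 (adjusted p = 0.0589). The mean over both adult effects called 4 of the 25, all higher, where 2.86% of all genes were: Ddit4 by 1.06, the kinase Plk3 by 0.43, Sesn2 by 0.42 and Pmaip1 (Noxa), a promoter of apoptosis, by 0.27. In SS minus AS 2 of the 25 were lower, where 0.467% of all genes were: Btg2 at -1.62 and Plk2 at -1.49. Relative to the AA mean, the list averaged 0.03 to 0.11 in SS, against -0.08 to -0.01 in SA, and 0.14 to 0.20 in AS, against -0.03 to 0.03 in AA. Neither of these pairs of groups overlapped, but a few genes with large differences weigh on such means. Single genes ran from -0.39 to 1.30 in SS minus SA and from -0.19 to 1.02 in AS minus AA, around the medians above. How often other lists come apart in this way was not tested. Of 5 GADD45 partners and MAPK kinases measured, 1 passed in SS minus SA, where 1.91% of all genes did. It was the kinase Map2k6, which fell by 0.43 with an adjusted p just under the threshold (0.0493), and Pcna had 0.01.

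**Figure D4:**
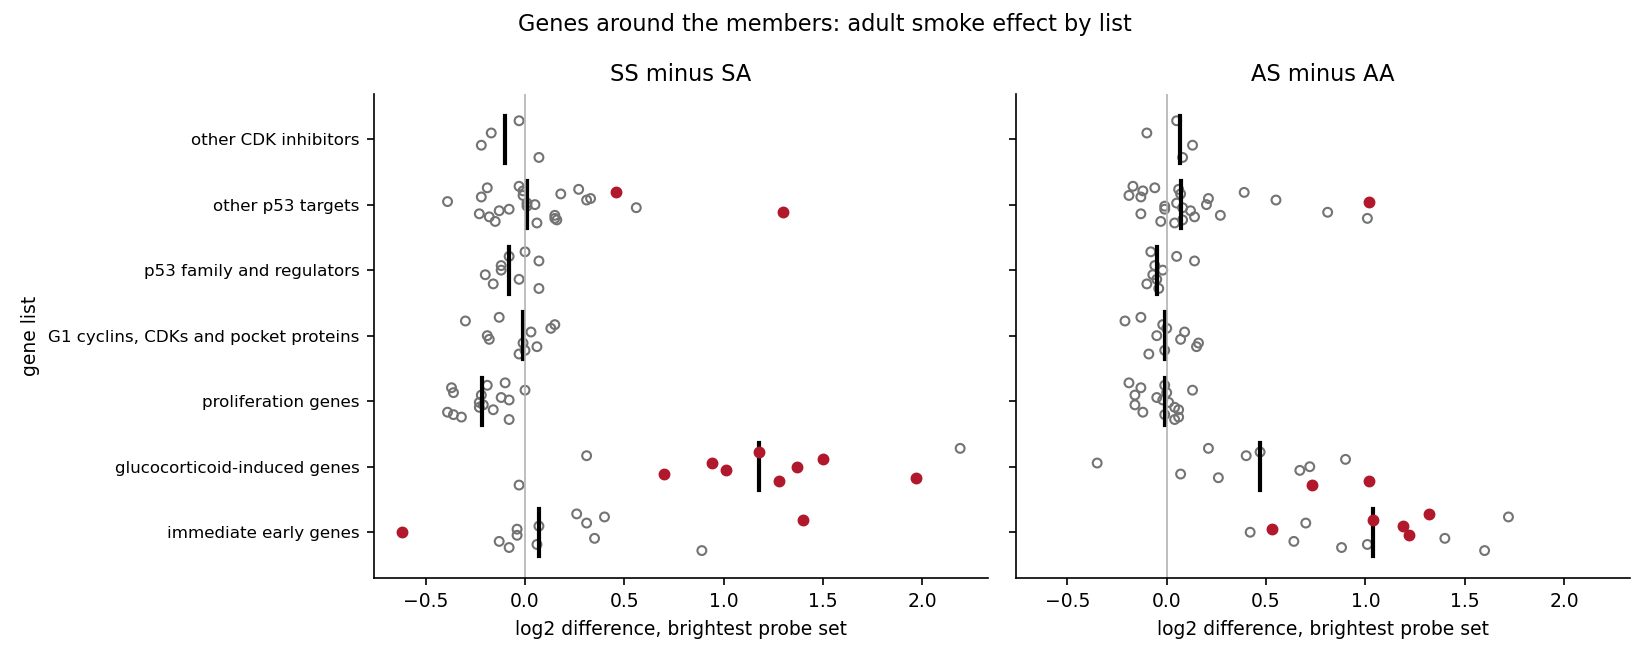
Log2 difference at the brightest probe set (horizontal axis) for each gene of 7 lists, SS minus SA at left and AS minus AA at right. Filled red points passed the threshold and the vertical bars are list medians. Glucocorticoid-induced genes lie farthest to the right at left (median 1.18) and immediate early genes farthest to the right at right (median 1.04), while other p53 targets centre near 0.

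Glucocorticoid-induced genes were called in SS minus SA and in AS minus AA, whereas Cdkn1a passed in SS minus SA and not in AS minus AA. Of 11, 8 rose in SS minus SA, where 0.874% of all genes did, with a median of 1.18 beside -0.01 over all genes. Fkbp5, which tempers the glucocorticoid receptor, had the largest difference among the 8, at 1.97 ± 0.35, followed by the clock repressor Per1 at 1.5, the metallothionein Mt2 at 1.37 and Errfi1, an inhibitor of the EGF receptor, at 1.28. In AS minus AA 2 of the 11 rose, where 0.594% of all genes did: Errfi1 by 1.02 and the phosphatase Dusp1 by 0.73, with a list median of 0.47. The mean over both adult effects called 8 of the 11, all higher (2.86% of all genes). In SS minus AA 2 of the 11 rose, where 0.184% of all probe sets were called higher. In SS minus AS 1 was lower (0.467% of all genes). Relative to the AA mean, this list averaged 0.75 to 0.90 in SS and 0.35 to 0.56 in AS, against -0.68 to -0.02 in SA and -0.30 to 0.25 in AA. The SA sample lowest for this list, replicate 2, was also the lowest for Cdkn1a at both probe sets. In AS it was the reverse. Replicate 2 was the highest AS sample for the list (0.56) and the lowest for Cdkn1a (10.89 and 8.13). Within AA and within SS, samples stood in the same order for the list and for the brighter Cdkn1a probe set. At the dimmer probe set the highest AA and SS samples were again those of the list, but the full orders differed. What part a common inducer had in the Cdkn1a difference was not tested.

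Immediate early genes, which respond within minutes to handling and other stimuli, had another pattern. In AS minus AA 5 of 13 rose, where 0.594% of all genes did, with a median of 1.04. The mean over both adult effects called 7 of the 13, all higher (2.86% of all genes), and in SS minus AS 8 of the 13 were lower (0.467% of all genes), with a median of -1.73. In SS minus SA Maff rose by 1.40 and Ier3 fell by 0.62, with a median of 0.07. Their sample means relative to the AA mean were 0.42 to 1.58 in AS and -0.86 to -0.26 in SS, against -0.87 to -0.53 in SA and -0.34 to 0.44 in AA. Of the AS samples, the averaged pair was the lowest for this list and the highest for both Cdkn1a probe sets. Their part in the member values was not tested.

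Proliferation genes, whose products serve DNA synthesis and mitosis, gave 0 calls among 16 measured in any comparison. Of all genes, 1.91% passed in SS minus SA, 1.12% in AS minus AA and 6.27% in the mean adult effect, so 0 of 16 is near the share of all. The median was -0.21 in SS minus SA and 0.24 in SA minus AA. Sample means were -0.02 to 0.06 in SS and -0.05 to 0.00 in AS, against -0.03 to 0.96 in SA and -0.11 to 0.10 in AA. The value of 0.96 was that of SA replicate 4 and the 3 other SA samples were at -0.03 to -0.02, beside which the 4 SA values of Cdkn2c were within 0.04 of each other.

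Markers of other cells the lung can hold were read as means of their lists relative to AA. B and plasma cell markers, 5 of 6 measured, were at -1.16 to -0.65 in SS, against -0.42 to 0.12 in SA, with -0.44 to 0.15 in AS and -0.43 to 0.50 in AA. T cell markers, 3 of 5 measured, were at -0.46 to -0.21 in SS, against -0.27 to -0.01 in SA. In SS minus SA, 0 genes of these lists passed, where 1.91% of all genes did. Of the B and plasma cell markers, 1 of 5 was called lower in AS minus AA, where 1.12% of all genes passed. The list ran from -1.33 to 0.49 there, with a median of 0.15, so its markers went both ways. In SS minus AS 1 was called lower (0.467% of all genes lower), and the list ran from -1.31 to 0.41 with a median of -0.99. In the mean adult effect 1 was called lower (6.27% of all genes passed), with the list at -0.88 to -0.07. Over all samples Cd79a lay between 7.08 and 8.75 and Cd3e between 8.14 and 8.75. Neutrophil markers, 7 of 8 measured, overlapped between all groups (-0.18 to 0.14 in SS, against -0.57 to 0.12 in SA), as did cardiac muscle genes (-0.33 to -0.04 in SS, against -0.15 to 0.70 in SA). Lung cell markers, 8 of 8 measured, were at 0.01 to 0.03 in SS, against -0.03 to 0.01 in SA. They were at -0.01 to 0.24 in AS, where the averaged pair had 0.24, against -0.03 to 0.03 in AA. The part of lymphocyte number in the fall of Cdkn2c and in the rises of Cdkn1a and Trp53inp1 was not tested.

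Genes whose pattern over the 14 samples was most like that of a called member were listed from 13065 genes with a mean log2 value of at least 6. For Cdkn1a these were Cdc42ep4, AA986860 and the kinase Map3k6, with a Pearson r of 0.979, 0.976 and 0.966. For Trp53inp1 they were Tmcc3 (0.92), Cyp1a1, the smoke-induced cytochrome P450 (0.891), and glutamine synthetase Glul (0.884). For Cdkn2c they were Tgif2 (0.892), Sh3rf2 (0.889) and Lrrc75a (0.882). All points share the same arrays and the same 4 groups, so these are descriptions of likeness.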

How the data were processed

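The authors deposited normalized log2 values, 1 per probe set and array, between 2.4 and 15.11. How the background was corrected and probes were summarised is not given in the sources used here. The submitters' processing notes name limma, with no version. With the raw signals not used here, presence calls were not made. Of 45101 probe sets, 64 controls were left out. Of those tested, 34945 had 1 symbol, 932 had several and 9160 had none.

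Group means were fitted per probe set in 14 samples by lmFit, contrasts.fit and eBayes of limma (version 3.58.1, R 4.3.3), leaving 10 residual degrees of freedom. The p-values are two-sided, with Benjamini-Hochberg adjustment across the 45037 probe sets of each comparison, with 0.05 as the threshold. Errors are standard errors unless named SD. The brightest probe set of a gene has the highest mean over all samples. All members are named. From most lists, genes past the threshold are named, up to 4 in a comparison by size at the brightest probe set, with up to 2 others. Any further ones were chosen after their values were seen. Only counts are given for called B and plasma cell markers and for immediate early genes called outside SS minus SA. The same holds for glucocorticoid-induced genes called outside SS minus SA and AS minus AA. The members, gene lists and the averaging of near-identical arrays were chosen with earlier results of these data known. Alternatives were 16 arrays kept separate, a replicate block, only the groups compared, a further quantile normalization, centring on the median, array weights, a mean log2 of at least 5, 1 probe set per gene, trend and robust moderation, and each sample left out.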

Additional observations from a re-analysis of the deposited data

Results flagged for a closer look

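The adult effect on Cdkn2c differed between mice with SHS and mice with air in utero by a test of the difference itself. Its interaction was -0.48 ± 0.08 (limma, adjusted p = 0.0278), with SS minus SA at -0.45 and AS minus AA at 0.04. Of 36 sets of 4 samples (the SA and AA values of each member probe set), 0 had a sample far from the others by Dixon's criterion, which chance meets in about 1 of 20, and the SS and AS groups of 3 could not be read this way.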

How the results depend on the processing

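Only the 39 member results with an unadjusted p under 0.05 in the main fit (limma) were followed through the alternatives. Of their 864 alternative values, 810 kept direction and side of the threshold, 32 lost and 22 gained a call, and 0 reversed. Results picked for lying far from 0 can hardly reverse, so these counts do not speak for the other member results. The count of 0 member probe sets in AS minus AA became 3 with 16 arrays kept separate, 2 with the replicate block (Cdkn1a 0.74 at 1421679_a_at and Gadd45b -0.36 at 1449773_s_at), and 1 with a mean log2 of at least 5 or with trend and robust moderation (Gadd45b), and ran from 0 to 1 when a sample was left out. SS minus AS became 2 with separate arrays. With 1 probe set per gene, which tests fewer members, the 5 of SS minus SA became 3, the 3 of SS minus AA became 1 and the 5 of the mean adult effect became 3. Other settings added calls: SS minus SA had 6 with separate arrays or array weights (Gadd45g), and the mean adult effect had 7 with separate arrays (Mdm2, Gadd45g) and 6 with quantile normalization, centring or array weights (Mdm2). SS minus AA had 4 with separate arrays or array weights (the brighter Cdkn1a probe set). The replicate block left 1 in SS minus AA and 0 in the interaction. Leaving out a sample gave 2 to 5 in SS minus SA (2 without SS replicate 3), 0 to 4 in SS minus AA and 0 to 1 in the interaction, where the Cdkn2c call was lost without 9 of the 14 samples in turn. The cause of these changes was not tested, beyond the fewer samples. Same-numbered samples of different groups deviated together with r from -0.157 to 0.251, against -0.281 to 0.291 in differently numbered ones. An averaged pair went by its first number here. These values cannot settle whether the numbers pair animals, as the labels do not say what a number stands for. Only the groups compared was not run for the interaction and the mean adult effect. With further quantile normalization or centring, no comparison had a median over all probe sets farther than 0.028 from 0. In the main fit the farthest was 0.017.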
